A study of Mus musculus with 24 samples.

Results

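The genes described here load peptides onto MHC class I molecules or belong to the immunoproteasome, the form of the proteasome that makes many of those peptides. They were 10 mouse genes chosen by symbol: Tap1, Tap2, Tapbp, Psmb8, Psmb9, Psmb10, Psme1, Psme2, B2m and Nlrc5. Of these, 9 had a probe set of their own among the 18193 genes measured that way, and Psme2 was read only through a probe set that also carries the symbol Psme2b. Together they had 16 probe sets of the 45037 on the array that were not controls.

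Expression was measured on 24 Affymetrix arrays of shaved dorsal scapular skin from female RAG2-/- mice, which lack the recombinase needed to make T and B cells of their own. Control mice had been grafted with syngeneic Balb/c splenocytes. Mice with GVH-SSc, a graft-versus-host model of scleroderma, had been grafted with B10.D2 splenocytes and treated with an isotype antibody or with anti-IFNAR1, which binds a subunit of the receptor for type I interferons. Skin was taken at day 14 or day 28, giving 6 groups of 4 arrays: syngeneic, isotype and anti-IFNAR1 at each day. All groups share the RAG2-/- recipient, so any T or B cells in the skin come from the graft. The labels name no antibody for the syngeneic mice and give no age, batch or scan date, and they do not say that the arrays of a group are separate animals. The p-values therefore measure the spread between these samples, which may be technical. Isotype against syngeneic skin cannot tell the graft apart from an injected antibody if the syngeneic mice received none.

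MHC class I molecules show short peptides from inside the cell to CD8 T cells. Proteasomes cut proteins into peptides, the TAP transporter moves these into the endoplasmic reticulum, and tapasin holds the empty class I molecule beside the transporter until a peptide binds. Interferon gamma, made largely by T and NK cells, induces most genes of this pathway, and type I interferons induce many of them as well. Cells given interferon gamma exchange the catalytic proteasome subunits Psmb5, Psmb6 and Psmb7 for Psmb8, Psmb9 and Psmb10 in newly made proteasomes.

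Several of these genes lie side by side. In the RefSeq annotation Psmb9, Tap1, Psmb8 and Tap2 are consecutive protein-coding genes on chromosome 17, and Tap1 and Psmb9 start 226 bases apart on opposite strands, so their promoter windows overlap by 275 bases. RefSeq promoter windows (build GRCm38.p6) were at hand for 8 of the 10 genes, as 9 windows of 300 bases that end 50 bases after the gene start. Windows were searched on both strands for GAAANNGAA (resembling the interferon-stimulated response element, ISRE), TTCNNNGAA (resembling the gamma-activated site, GAS), GGGANNTTC (resembling an NF-kB site), TGACG and CCAAT. The 250 bases before the start are shown for B2m, which holds the ISRE-like and NF-kB-like letters, for Psmb8, which holds the GAS-like letters, and for Tap1, whose stretch also serves Psmb9 on the other strand. Capitals mark any of the 5 motifs, on either strand.
B2m (chr2:122147437-122147686, plus strand): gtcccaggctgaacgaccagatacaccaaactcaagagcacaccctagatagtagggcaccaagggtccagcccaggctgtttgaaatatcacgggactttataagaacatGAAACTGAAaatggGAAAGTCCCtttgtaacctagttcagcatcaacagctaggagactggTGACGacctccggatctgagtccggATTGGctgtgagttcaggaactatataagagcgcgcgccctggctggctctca
Psmb8 (chr17:34197945-34198194, plus strand): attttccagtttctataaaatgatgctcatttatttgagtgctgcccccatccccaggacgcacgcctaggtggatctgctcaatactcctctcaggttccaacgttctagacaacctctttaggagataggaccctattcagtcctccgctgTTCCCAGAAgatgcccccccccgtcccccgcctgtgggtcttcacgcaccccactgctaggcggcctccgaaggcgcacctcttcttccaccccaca
Tap1 (chr17:34187306-34187555, plus strand): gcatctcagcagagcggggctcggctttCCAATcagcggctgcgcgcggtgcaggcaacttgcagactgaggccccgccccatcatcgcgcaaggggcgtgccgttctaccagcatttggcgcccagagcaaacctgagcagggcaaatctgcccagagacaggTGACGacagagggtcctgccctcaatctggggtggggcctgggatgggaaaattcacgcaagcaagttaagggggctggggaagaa
GAAANNGAA was present in 2 of the 9 windows, in B2m and, as TTCGCTTTC on the other strand 10 bases after the start, in Psme1. Of all 32851 RefSeq windows, 8.56% hold it. TTCNNNGAA was present in 1 of the 9 windows, against 8.3% of all windows, and GGGANNTTC in 1, against 3.94%. TGACG was present in 5 windows, which belong to 4 genes (20.8% of all windows), and CCAAT in 4 windows (37.4%). The overlapping windows of Tap1 and Psmb9 were counted separately although they share these letters. So were the overlapping windows of Psme2, which hold the same TGACG. A match of letters is a description of the sequence, not a bound site.

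Nlrc5 acts on class I promoters through a composite element whose X2 and Y boxes resemble TGACG and ATTGG at a fixed distance. The pair TGACG, 20 bases of any kind, ATTGG was therefore searched as a unit after its spacing had been seen in the B2m stretch. It was present in B2m, the only 1 of the 8 genes with a window that holds it, and in 3 of the 32 genes with a window whose symbol begins with H2-, all 3 of them class I heavy chain genes. Over all 32851 windows 31 held the pair on either strand (0.0944%). The matches in B2m and the H2- genes were sought on the gene's own strand only. The stretches of B2m and of these heavy chain genes are shown with both boxes in capitals. They share the capital letters because they were picked by them. The match in B2m was given in advance by the choice of spacing.
B2m (chr2:122147609-122147638, plus strand): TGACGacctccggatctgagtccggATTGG
H2-K1 (chr17:34000359-34000388, minus strand): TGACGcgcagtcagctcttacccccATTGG
H2-D1 (chr17:35262993-35263022, plus strand): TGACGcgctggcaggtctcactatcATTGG
H2-M3 (chr17:37270188-37270217, plus strand): TGACGcttctccaattcccattctaATTGG

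Levels are given as log2(intensity + 16), a scale on which changes of dim genes are understated, and are compared between groups within a probe set only. Differences were tested with limma over all 18193 genes, and a gene is called changed where its Benjamini-Hochberg adjusted p is under 0.05. Values after ± are SEs of a difference, except where SD is written.

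The 4 syngeneic day 14 arrays stood apart from one another before any comparison. The mean level of the 9 genes was 12.35 on array 1 and 12.07 on array 2, and 10.75 on array 3 and 10.71 on array 4. Arrays 1 and 2 lay within or next to the range of the isotype day 14 arrays (12.12 to 12.81), while arrays 3 and 4 lay at the level of syngeneic skin at day 28 (10.42 to 10.73). Interferon gamma-inducible genes outside the class I pathway were split the same way, with a mean over 13 genes of 11.3 on array 1 against 7.86 on the lowest array. Ptprc, the pan-leukocyte CD45, read 12.36, 11.98, 10.56 and 9.95 on these 4 arrays. Cd3d, part of the T cell receptor complex, did not follow the split to the same extent, at 5.18, 4.39, 4.39 and 4.48, against 8.61 to 9.1 in isotype skin. The log2 ratio of the 3' to the 5' Gapdh probe sets, a sign of RNA quality, was 3.19, 0.99, 0.97 and 6.36 on syngeneic day 14 arrays 1 to 4. That of array 4 was the highest of all arrays, and 4 arrays of other groups also exceeded 4. The part of leukocytes or of RNA quality in the split was not tested. Because all 6 groups share one estimate of the spread, this group also widens the error of comparisons it does not enter. For the 9 genes, anti-IFNAR1 skin against isotype skin, and against syngeneic skin at day 28, is therefore given with and without it.

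**Figure D1:**
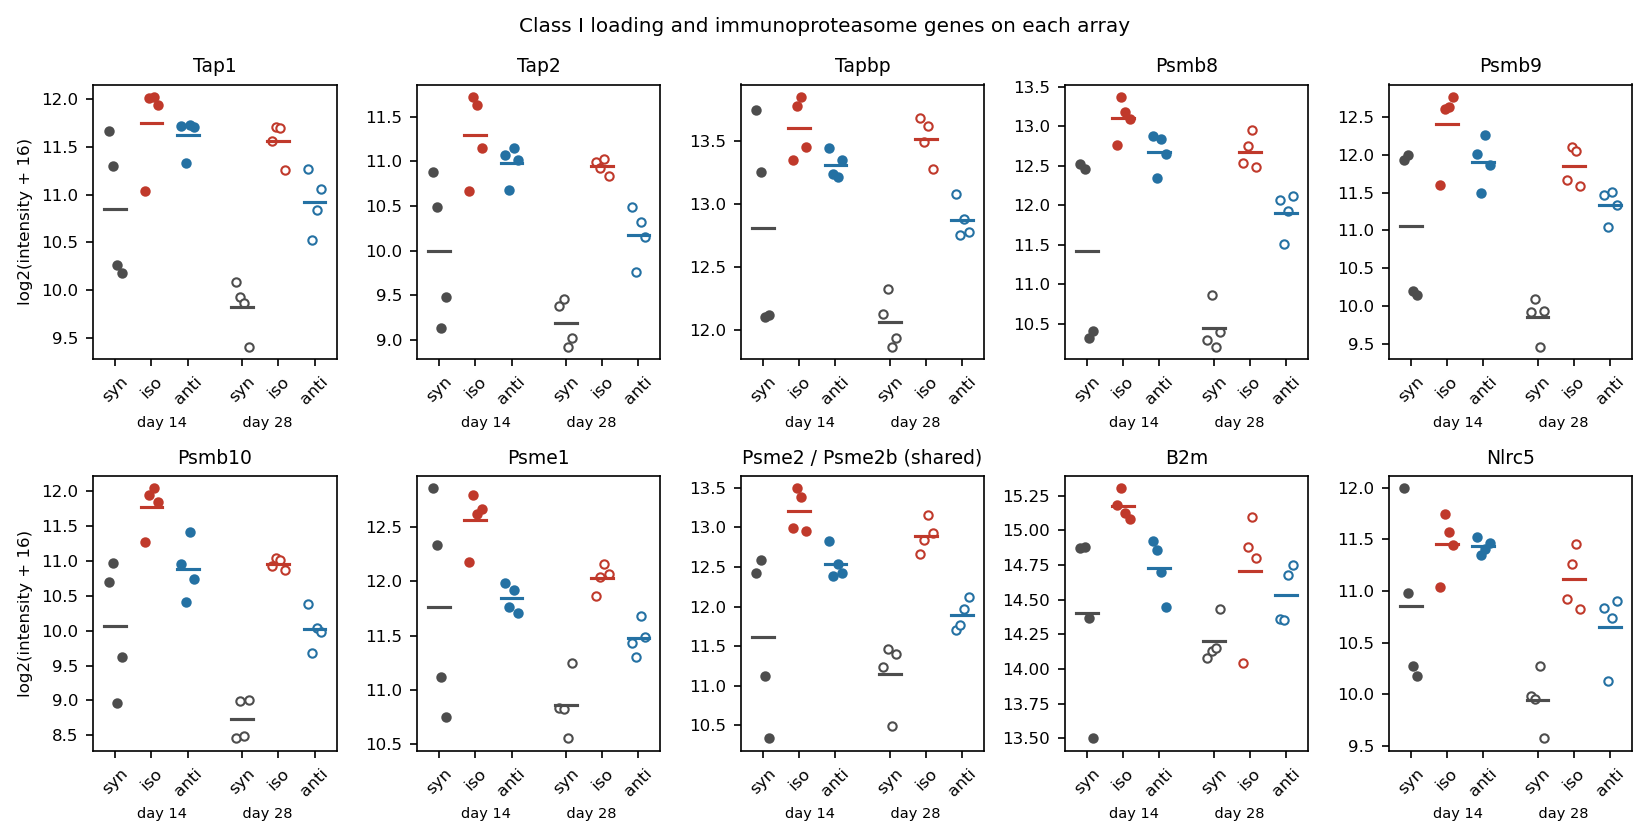
Level of each of the 10 genes, as log2(intensity + 16), on every array (points) with the group mean (bar), in syngeneic (syn), isotype (iso) and anti-IFNAR1 (anti) skin at day 14 (filled) and day 28 (open); each panel has its own axis, which does not start at 0. For every gene the isotype day 14 mean is the highest and the syngeneic day 28 mean the lowest, and the syngeneic day 14 points fall into a high and a low pair for most genes.

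At day 28, 8 of the 9 genes were called higher in isotype GVH-SSc skin than in syngeneic skin, and B2m was not called; 6.66% of all genes were called higher in this comparison. The median change was 1.73, against 0.00 over all genes. For 8 of the 9 the lowest isotype array lay above the highest syngeneic array, which held for 8.09% of all genes. With the mean level of hair follicle genes as a covariate 6 were called, and Psme1 (adjusted p = 0.0739) and Nlrc5 (adjusted p = 0.081) were not.

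Tap1 and Tap2 encode the subunits of the peptide transporter. Tap1 read 10.09, 9.93, 9.87 and 9.41 on the syngeneic day 28 arrays, 11.56, 11.71, 11.69 and 11.26 on the isotype arrays, and 11.26, 10.53, 10.84 and 11.06 on the anti-IFNAR1 arrays. All isotype arrays lay above all syngeneic arrays, and the anti-IFNAR1 arrays lay between, reaching the lowest isotype array. The isotype difference was 1.73 ± 0.29 (3.32-fold, adjusted p = 0.000458). Tap2 read 9.37, 9.46, 8.92 and 9.02 in syngeneic skin, from 10.84 to 11.03 in isotype skin, and 10.49, 9.76, 10.32 and 10.15 in anti-IFNAR1 skin. Here the 3 groups did not overlap at all, and isotype exceeded syngeneic skin by 1.75 ± 0.30 (3.37-fold, adjusted p = 0.000555). Tapbp, which encodes tapasin, ran from 11.87 to 12.33 in syngeneic, from 13.28 to 13.68 in isotype and from 12.76 to 13.08 in anti-IFNAR1 skin. Its isotype difference was 1.45 ± 0.26 (adjusted p = 0.000807).

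Psmb8, Psmb9 and Psmb10 encode the catalytic subunits of the immunoproteasome and had the 3 largest changes of the 9 genes. Psmb8 read 10.30, 10.87, 10.21 and 10.40 on the syngeneic day 28 arrays, 12.54, 12.75, 12.95 and 12.49 on the isotype arrays and 12.06, 11.51, 11.93 and 12.12 on the anti-IFNAR1 arrays. The groups did not overlap, and isotype exceeded syngeneic skin by 2.24 ± 0.38 (4.72-fold, adjusted p = 0.000552). Psmb9 ran from 9.46 to 10.09 in syngeneic, from 11.59 to 12.10 in isotype and from 11.05 to 11.51 in anti-IFNAR1 skin. Its isotype difference was 2.00 ± 0.36 (4.01-fold, adjusted p = 0.000864), again with no overlap. Psmb10 ran from 8.46 to 9.01 in syngeneic skin and read 10.92, 11.04, 11.01 and 10.88 in isotype and 10.39, 9.68, 10.04 and 9.98 in anti-IFNAR1 skin. The isotype arrays were close to one another (SD 0.07, n = 4), and the difference was 2.22 ± 0.33 (4.66-fold, adjusted p = 0.000188).

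The constitutive subunits that these 3 replace were not called at day 28. Psmb5 differed by 0.31 ± 0.12 (adjusted p = 0.0915), Psmb6 by 0.11 ± 0.12 (adjusted p = 0.665) and Psmb7 by -0.15 ± 0.28 (adjusted p = 0.933) between isotype and syngeneic skin. Of 16 other core and assembly genes of the proteasome, 1 was called higher (Psma5, a core subunit, 0.49) and 1 lower (Psmg2, an assembly chaperone, fell by 0.59), and of 17 genes of the 19S regulator 0 were called (median 0.18). The difference between the inducible and the constitutive subunits was not tested as such.

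**Figure D2:**
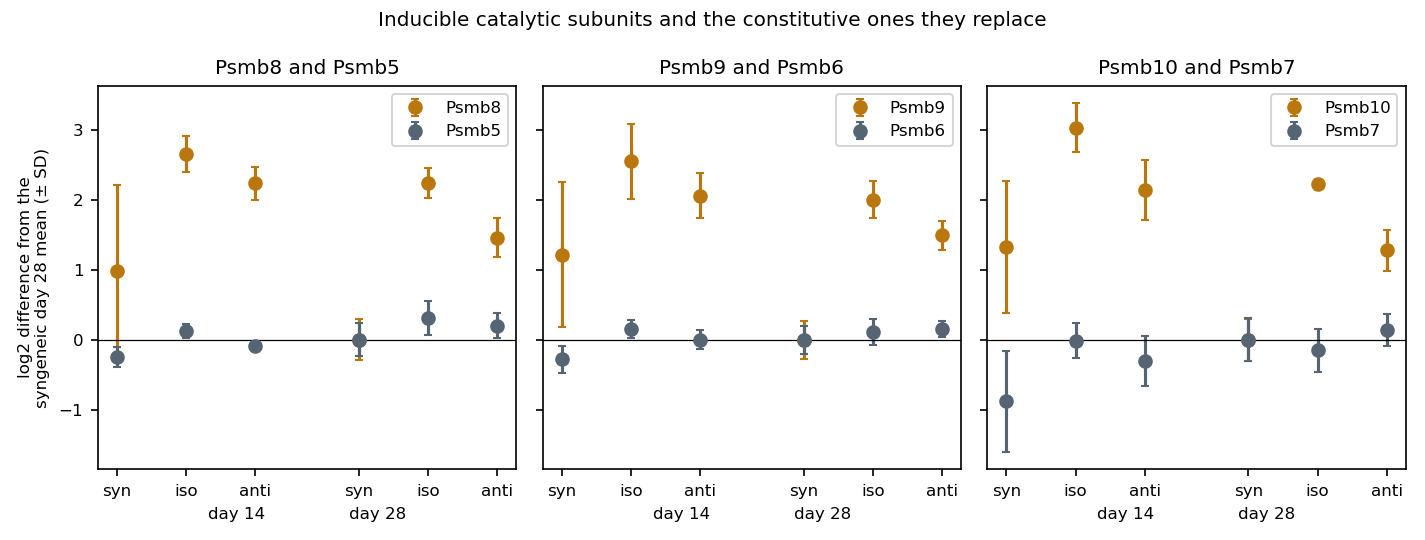
Group means of each inducible catalytic subunit (orange) and of the constitutive subunit it replaces (grey), as the log2 difference from that gene's own syngeneic day 28 mean, with the SD of the 4 arrays as bars. In isotype skin at day 28 the inducible subunits sit at 2.00 to 2.24 and the constitutive ones at -0.15 to 0.31. For the inducible subunits and Psmb7 the widest bars are those of the syngeneic day 14 group, but not for Psmb5 and Psmb6.

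Psme1 and Psme2 encode the alpha and beta chains of PA28, a cap that opens the proteasome. Psme1 read 10.83, 10.82, 10.55 and 11.24 on the syngeneic day 28 arrays, 11.87, 12.04, 12.16 and 12.07 on the isotype arrays and 11.43, 11.30, 11.68 and 11.48 on the anti-IFNAR1 arrays. The 3 groups did not overlap, and isotype exceeded syngeneic skin by 1.18 ± 0.31 (2.26-fold, adjusted p = 0.013). The probe set shared by Psme2 and Psme2b ran from 10.50 to 11.47 in syngeneic, from 12.66 to 13.16 in isotype and from 11.70 to 12.12 in anti-IFNAR1 skin. Its difference was 1.74 ± 0.35 (limma over the 45037 probe sets, adjusted p = 0.0033), and which of its symbols the signal belongs to is not settled by the array. Psme3, which encodes the gamma form of the cap found in the nucleus, differed by 0.10 and was not called.

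B2m encodes beta-2 microglobulin, the light chain of every class I molecule. It read 14.08, 14.13, 14.15 and 14.43 on the syngeneic day 28 arrays, 14.04, 14.88, 15.10 and 14.80 on the isotype arrays and 14.36, 14.35, 14.68 and 14.75 on the anti-IFNAR1 arrays. Isotype array 1 lay below every syngeneic array and the other 3 above, so the groups overlapped, and the difference of 0.51 ± 0.25 was not called (adjusted p = 0.195). That array is 1 of the 5 with a log2 Gapdh ratio above 4, at 4.59; without those 5 arrays B2m was called (adjusted p = 0.00812), as it was with array weights (adjusted p = 0.000142). The heavy chains it pairs with were called higher for H2-K1 (0.85 ± 0.20, adjusted p = 0.00694) and H2-D1 (0.77 ± 0.20, adjusted p = 0.0121), the classical chains, and for the nonclassical H2-T24 (1.91 ± 0.45) and H2-M3 (1.08 ± 0.32). Over the list of 10 class I heavy chains measured, 4 were called higher and 1 lower, with a median of 0.09. The lower one was Cd1d1, a class I-like molecule that presents lipids, which fell by 1.95. Heavy chain genes are close in sequence, so probe sets may be shared between them in part.

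Nlrc5 encodes the transactivator of class I genes. It read 9.99, 9.95, 10.28 and 9.57 on the syngeneic day 28 arrays, 10.92, 11.26, 11.45 and 10.82 on the isotype arrays and 10.84, 10.13, 10.74 and 10.90 on the anti-IFNAR1 arrays. Isotype and syngeneic skin did not overlap and differed by 1.17 ± 0.30 (2.25-fold, adjusted p = 0.00985), while the anti-IFNAR1 arrays overlapped both. Among 13 other regulators of class I transcription 3 were called higher: Irf1, a transcription factor induced by interferon gamma (2.50 ± 0.43, adjusted p = 0.000593), Irf8 (1.84) and Rela, an NF-kB subunit (0.56). Of 12 chaperones and peptide editors of class I measured, 4 were called higher, among them the peptide-trimming enzyme Erap1 (1.71 ± 0.45) and Tapbpl, a relative of tapasin (1.64 ± 0.23). Calr and Uggt1, which handle newly made glycoproteins, were called at 0.50 and 0.54. H2-T23, Atf1 and Nfkb1 are not analysed here, since no probe set carried their symbol alone.

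Genes that are not class I genes but are induced by interferons moved in the same comparison. Of 17 genes typical of type I interferon 13 were called higher (median 2.03), led by Oas3 (3.90), and of 13 typical of interferon gamma 10 were called higher (median 3.23), led by the chemokine Cxcl9 (6.91). Ifng itself was called at 2.92 ± 0.44 (adjusted p = 2e-04). It read 4.51 to 4.62 in syngeneic and 7.25 to 7.57 in isotype skin. Ifnb1, which encodes interferon beta, read between 4.38 and 4.40 on the syngeneic and isotype arrays of day 28, near the lowest level on the array.

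At day 14 the same comparison was less settled. Of the 9 genes 7 were called higher in isotype than in syngeneic skin, against 5.29% of all genes called higher, with a median of 0.90. The call depended on which syngeneic arrays were in the fit: without arrays 1 and 2 all 9 were called (median 1.64), against 7.84% of all genes called higher. Without arrays 3 and 4 limma called 0, with 3 at an unadjusted p under 0.05 (median 0.30), against 0.786% of all genes. Without array 3 alone or array 4 alone 3 genes were called, against 3.67% and 2.75% of all genes called higher. Likewise 3 were called without isotype array 2 or isotype array 3 (3.1% and 3.46% of all genes). Without syngeneic array 1 all 9 were called (6.26% of all genes). Fitted on the 8 arrays compared alone, limma called 0 of the 9, with 5 at an unadjusted p under 0.05, and 0.225% of all genes were called higher.

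Psmb10 read 10.70, 10.98, 8.96 and 9.62 on the syngeneic day 14 arrays and 11.27, 11.95, 12.04 and 11.84 on the isotype arrays. These did not overlap, and the difference was 1.71 ± 0.33 (adjusted p = 0.00315). Psmb8 read 12.52, 12.46, 10.32 and 10.40 against 12.76, 13.37, 13.18 and 13.10, a difference of 1.67 ± 0.38 (adjusted p = 0.00841), also without overlap. B2m was the third gene without overlap, at 14.87, 14.88, 14.37 and 13.50 against 15.18, 15.30, 15.13 and 15.08, and was called at 0.77 ± 0.25 (adjusted p = 0.0448). That is 3 of the 9, against 5.11% of all genes. Tap1 read 11.66, 11.30, 10.26 and 10.18 against 11.03, 12.01, 12.02 and 11.94, so isotype array 1 lay below syngeneic arrays 1 and 2 (0.90 ± 0.29, adjusted p = 0.0459). Tap2 was called at 1.29 ± 0.30, Tapbp at 0.80 ± 0.26 and Psmb9 at 1.34 ± 0.36, all with overlapping groups. Psme1, at 0.80 ± 0.31 (adjusted p = 0.0947), and Nlrc5, at 0.60 ± 0.30 (adjusted p = 0.204), were not called. The probe set shared by Psme2 and Psme2b was called at 1.59 ± 0.35 (adjusted p = 0.011 over probe sets, where 3.22% were called higher).

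The 3 constitutive subunits were called higher at day 14, Psmb7 by 0.86 ± 0.28, Psmb6 by 0.44 ± 0.12 and Psmb5 by 0.38 ± 0.12. Of 16 other core and assembly genes 5 were called higher and 1 lower (Psmg2, which fell by 0.52). The change between days was called by limma for none of these genes; that of Psmb7 had an unadjusted p of 0.0178 (adjusted p = 0.402). The change of the isotype difference between day 14 and day 28 was called for 0 of the 9 members by limma, with 0 at an unadjusted p under 0.05 (0.044% of all genes were called), and it ran from -0.26 for B2m to 0.83 for Tap1.

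With anti-IFNAR1 at day 28 every one of the 9 genes had a lower mean than with isotype, but none passed the test over all 24 arrays. The changes ran from -0.94 for Psmb10 to -0.17 for B2m, with a median of -0.63. By limma 0 of the 9 were called and 4 had an unadjusted p under 0.05, while 4.89% of all genes were called lower. The smallest adjusted p was that of Psmb10 (-0.94 ± 0.33, adjusted p = 0.0678), followed by Tap2 (-0.77 ± 0.30, adjusted p = 0.106) and Tapbp (-0.64 ± 0.26, adjusted p = 0.119). For 6 of the 9, namely Tap2, Tapbp, Psmb8, Psmb9, Psmb10 and Psme1, all anti-IFNAR1 arrays lay below all isotype arrays, which held for 6.85% of all genes. The probe set shared by Psme2 and Psme2b was likewise apart, at -1.003 ± 0.35 (adjusted p = 0.102 over probe sets).

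The test turned on the spread lent by the syngeneic day 14 arrays, which are no part of this comparison. Without that group 5 genes were called lower, against 5.74% of all genes: Tap2 (adjusted p = 0.0199), Tapbp (0.00298), Psmb8 (0.00755), Psmb10 (0.00748) and Psme1 (0.0138), and so was the shared probe set (0.00445 over probe sets). Fitted on the 8 arrays compared alone, the same 5 genes were called, with adjusted p from 0.0151 for Psmb10 to 0.0382 for Psmb8, against 3.88% of all genes called lower. Tap1, Psmb9, B2m and Nlrc5 were called in none of these 3 fits. Leaving out the whole group was chosen after its spread had been seen.

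In anti-IFNAR1 skin at day 28 all 9 means were above those of syngeneic skin, from 0.34 for B2m to 1.49 for Psmb9, with a median of 0.99, and for 7 of the 9 the groups did not overlap, against 1.34% of all genes. By limma over all arrays 0 of the 9 were called and 7 had an unadjusted p under 0.05; 0.033% of all genes were called higher. Without the syngeneic day 14 group 4 were called higher, against 0.22% of all genes: Psmb8 (1.46, adjusted p = 0.000668), Tapbp (0.81, adjusted p = 0.00751), Psmb9 (1.49, adjusted p = 0.00751) and Psmb10 (1.28, adjusted p = 0.0122). On the 8 arrays compared alone only Psmb9 was called (adjusted p = 0.0323), against 0.181% of all genes. The isotype and anti-IFNAR1 differences from syngeneic skin share the syngeneic arrays. For Psmb8 they were 2.24 and 1.46, for Tap1 1.73 and 1.10, for Psmb10 2.22 and 1.28, for Nlrc5 1.17 and 0.71, and for Psme1 1.18 and 0.61.

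**Figure D3:**
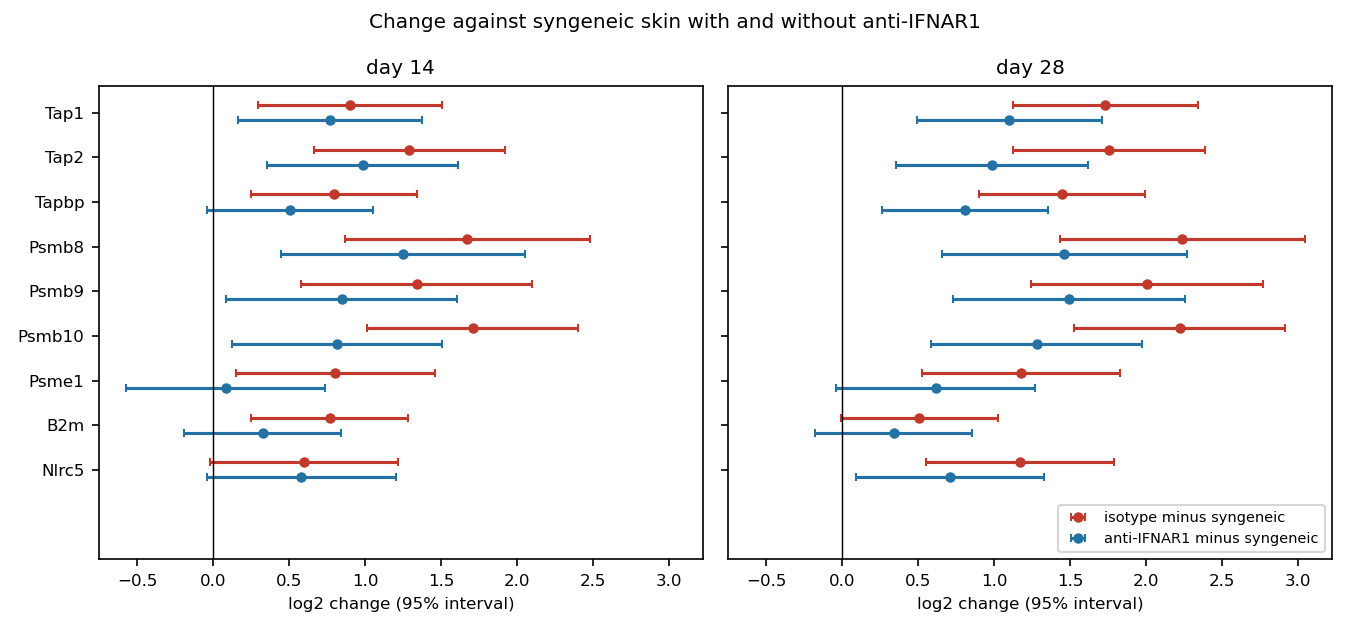
Log2 difference from syngeneic skin of the same day for isotype skin (red) and anti-IFNAR1 skin (blue), with 95% intervals from limma over all 24 arrays, for the 9 genes with a probe set of their own. At day 28 every blue point lies left of its red point and right of 0; the intervals of the pair share the syngeneic arrays and the pooled spread.

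Genes induced by interferons were read in the same groups, and the lists were not tested against each other. Those typical of type I interferon had a median of -1.71 under anti-IFNAR1 at day 28, with 13 of 17 called lower, and a median of 0.18 against syngeneic skin. Ifit1, an antiviral gene, was 2.83 above syngeneic in isotype skin and 0.18 above it in anti-IFNAR1 skin. The 13 genes typical of interferon gamma had a median of -1.25, with 1 called lower (Cxcl10, which fell by 3.38), and a median of 2.11 above syngeneic skin. Gbp2, a guanylate-binding protein, was 3.36 above syngeneic in isotype skin and 2.11 above it in anti-IFNAR1 skin. Ifng itself fell by 2.46 ± 0.44 under anti-IFNAR1 (adjusted p = 0.00128), to between 4.82 and 5.28. Irf1 differed by -1.18 ± 0.43 (adjusted p = 0.0807) and was not called, whereas Tapbpl (-0.995 ± 0.23, adjusted p = 0.00689) and H2-T24 (-1.66 ± 0.45, adjusted p = 0.017) were. Cd1d1, the lipid-presenting molecule, was called in the other direction, higher under anti-IFNAR1 by 2.31 ± 0.30 (adjusted p = 0.000109). H2-K1 differed by -0.37 and H2-D1 by -0.29, and neither was called.

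At day 14 none of the 9 genes was called between anti-IFNAR1 and isotype skin. Psme1 read 12.18, 12.80, 12.63 and 12.67 on the isotype arrays and 11.99, 11.76, 11.92 and 11.71 on the anti-IFNAR1 arrays, a difference of -0.72 with no overlap. B2m also did not overlap (-0.44), which makes 2 of the 9, against 7.51% of all genes. Changes over the 9 ran from -0.89 for Psmb10 to -0.02 for Nlrc5, with a median of -0.42, and limma called 0 of them, with 2 at an unadjusted p under 0.05 (0.654% of all genes were called lower). Without the syngeneic day 14 group Psmb10 (adjusted p = 0.0391) and Psme1 (adjusted p = 0.02) were called, against 1.86% of all genes called lower. Nlrc5 read 11.04, 11.75, 11.58 and 11.45 with isotype and 11.53, 11.35, 11.41 and 11.46 with anti-IFNAR1, and the interval of its difference ran from -0.64 to 0.60. Against syngeneic skin of day 14 the anti-IFNAR1 differences ran from 0.08 for Psme1 to 1.25 for Psmb8, and limma called 0 of 9, with 5 at an unadjusted p under 0.05 (0.341% of all genes were called higher). The change of the anti-IFNAR1 difference between days was called for 0 of 9, with 0 at an unadjusted p under 0.05 (0.0715% of all genes were called), and ran from -0.50 to 0.27.

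Between day 14 and day 28 all 9 means were lower at the later day in each of the 3 treatments, and limma called 0 of 9 in each. In syngeneic skin the median was -0.91, with 8 of 9 at an unadjusted p under 0.05 (0.0715% of all genes were called lower). The high arrays 1 and 2 of day 14 enter this comparison, and their part in it was not tested. Tap1 and Psmb9 did not overlap between the days in syngeneic skin, against 2.1% of all genes. In isotype skin the median was -0.42, with 1 of 9 at an unadjusted p under 0.05 (1.05% of all genes were called lower). In anti-IFNAR1 skin the median was -0.70, with 4 of 9 at an unadjusted p under 0.05 (0.385% were called lower). There the days did not overlap for 7 of the 9, against 4.05% of all genes.

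The order of the 6 group means had the same ends in all 9 genes and in the shared probe set, with isotype day 14 highest and syngeneic day 28 lowest. Neighbours in that order mostly overlapped, for Tap1 in every step but the last. In 2 of the 9, Psmb10 and Psme1, isotype skin of day 14 lay above that of day 28 without overlap, against 5.02% of all genes. Over the 24 arrays the levels of the 9 genes were correlated with one another, with Pearson's r from 0.69 to 0.97 over 36 pairs (median 0.91), a description in which the points share groups and arrays. With group means taken out the median was 0.81, and without the syngeneic day 14 arrays it was 0.55, with a range from -0.20 to 0.82.

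Genes outside the list whose level was most like the mean z-score of the 9 genes over the 24 arrays were AW112010 (r = 0.977), Gbp7 (0.975), Irgm1 (0.973), Gbp2 (0.972), Gbp2b (0.972), Irgm2 (0.972), Ifi47 (0.970), Ubd (0.967), Cd274 (0.967) and Iigp1 (0.967). Irf1 ranked 15 (r = 0.962), Ptprc 22 (0.950) and Ifng 169 (0.859). Irf7 ranked 349 (0.783) and Ifit1 525 (0.725), and the constitutive subunits ranked from 3917 for Psmb6 (0.197) to 5619 for Psmb7 (0.1). Ciita, the class II counterpart of Nlrc5, ranked 488 (0.735) and Rfx5, a subunit of the factor that binds the X box, 10144 (-0.097).

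Leukocyte and T cell markers and macrophage and monocyte markers moved with these genes between the treatments. For 7 dendritic and Langerhans markers the mean level went the other way at day 28. It was 5.81 in syngeneic, 5.49 in isotype and 5.84 in anti-IFNAR1 skin, and all isotype arrays lay below all syngeneic arrays. At day 14 the 3 treatments overlapped in this mean. Within the syngeneic day 14 group it was higher on arrays 1 and 2 than on arrays 3 and 4, like the class I genes. The mean level of 10 leukocyte and T cell markers ranged from 5.29 to 5.52 in syngeneic, from 7.48 to 7.80 in isotype and from 6.05 to 6.31 in anti-IFNAR1 skin at day 28. At day 14 it ranged from 5.37 to 6.28, from 7.79 to 8.39 and from 6.52 to 7.20. All 10 were called higher in isotype than in syngeneic skin at both days, and 9 were called lower under anti-IFNAR1 at day 28. The T cell gene Cd3d averaged 4.37 ± 0.07 (SD, n = 4) in syngeneic, 8.38 ± 0.17 in isotype and 6.06 ± 0.37 in anti-IFNAR1 skin at day 28. Of 10 macrophage and monocyte markers 7 were called higher in isotype skin at day 28 and 4 lower under anti-IFNAR1. Of 7 keratinocyte markers, the defining genes of epidermis, 1 was called higher in isotype skin at day 28. Other tissues of the sample moved as well. All 5 adipocyte markers were called lower in isotype than in syngeneic skin at day 28 and higher under anti-IFNAR1 than with isotype, with means of 10.76 in syngeneic, 8.82 in isotype and 10.99 in anti-IFNAR1 skin. Of 6 skeletal muscle markers 4 were called lower and then higher in these comparisons, with means of 14.87, 13.82 and 14.91. The mean of 11 hair follicle genes was 9.77, 6.23 and 7.63, with 2 called lower in isotype skin and 0 called under anti-IFNAR1. It varied widely within groups, from 5.37 to 13.36 over the anti-IFNAR1 arrays. In whole skin, more cells of a type and more RNA per cell cannot be told apart, and the part of these cells in the class I differences was not tested.

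**Figure D4:**
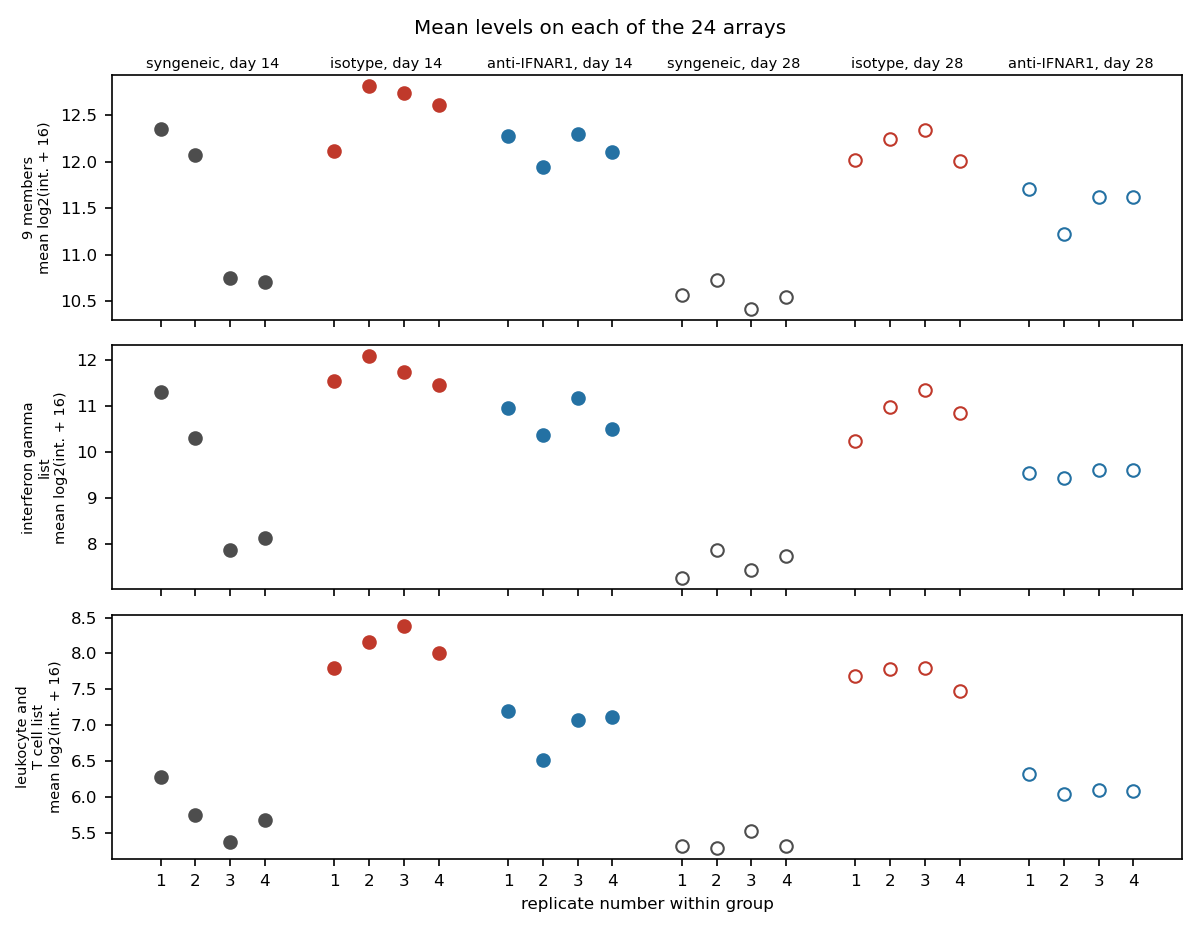
Mean log2(intensity + 16) on each of the 24 arrays for the 9 class I loading and immunoproteasome genes (top), 13 interferon gamma-inducible genes (middle) and 10 leukocyte and T cell markers (bottom); axes do not start at 0. Syngeneic day 14 arrays 1 and 2 reach 12.35 and 12.07 in the top panel but stay below 6.3 in the bottom panel, where isotype arrays lie at 7.48 or higher. The bottom list is mostly T cell genes. Its pan-leukocyte gene Ptprc read 12.36 and 11.98 on syngeneic day 14 arrays 1 and 2.

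Other probe sets of the same genes were mostly dim. Tap1 had 3 further probe sets near the lowest level on the array, which did not vary and carry no information on the gene. A second B2m probe set differed by 1.22 at day 14 and by 0.66 at day 28 between isotype and syngeneic skin. It was called at neither day over probe sets. In that fit the main probe sets of B2m, Tap1 and Tapbp were not called at day 14 either (adjusted p = 0.0655, 0.0669 and 0.0713). A second Psmb8 probe set was called at day 28 (1.75 ± 0.39, adjusted p = 0.0065 over probe sets), and a second, dim Tapbp probe set was not (1.32 ± 0.44, adjusted p = 0.0675). In all 10 of the 16 probe sets were called higher at day 28, against 4.21% of the 45037.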

How the data were processed

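The authors deposited 1 linear intensity per probe set and array; their steps before that are not stated in any label or header. Per the labels, biotin-labelled cRNA was made from total RNA. Array medians of the deposited intensity were close (14.84 to 17.71), so levels were put on the log2(intensity + 16) scale with no normalization added, and other normalizations were alternatives. No 2 arrays were identical.

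The table held 45101 probe sets: 64 controls, 34945 with 1 symbol, 932 with several and 9160 that the annotation leaves unnamed. Symbols were updated through gene identifiers, and each gene was read by its probe set with the highest mean. Group means were fitted to all 24 arrays with limma 3.58.1 in R 4.3.3 (18 residual degrees of freedom, prior degrees of freedom 0.71), two-sided, with Benjamini-Hochberg adjustment. All probe sets were fitted separately. The code was tested on simulated data. Motif letters were shortened to 9 after matches of longer forms had been seen. The members, gene lists, and tests were chosen with earlier results of these data known. Genes named besides the members were those a fixed rule gave: up to 4 called genes of a list with the largest changes, the 10 most alike, and set reference genes. Names of a few further genes were chosen after their values were seen. Alternatives are given in the closing section. The 4 arrays per group limit the precision.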

Additional observations from a re-analysis of the deposited data

Results flagged for a closer look

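Within groups of 4 arrays, 3 of 60 gene and group combinations had 1 array far from the other 3, which is about as many as the 1 in 20 that chance gives. Tap1 on isotype day 14 array 1 read 11.03, against 11.94 to 12.02 on the other 3. Psmb9 on the same array read 11.6, against 12.6 to 12.77. Tap1 on anti-IFNAR1 day 14 array 2 read 11.34, against 11.71 to 11.72. The split of the syngeneic day 14 group into 2 high and 2 low arrays is not of this kind and is described with the results.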

How the results depend on the processing

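The 8 calls of isotype against syngeneic skin at day 28 ranged from 8 to 9 when single arrays were left out; they were 6 with the hair follicle mean as a covariate, where Psme1 and Nlrc5 were lost, and 9 with array weights, where B2m was gained. The 10 probe set calls ranged from 9 to 11. The 7 calls of day 14 ranged from 3 to 9. They became 4 with arrays centred on their median, with the Gapdh ratio as a covariate or with the hair follicle mean as a covariate, 1 without arrays of high Gapdh ratio, and 0 on the arrays compared alone or without syngeneic arrays 3 and 4 (an alternative added after seeing the data). For anti-IFNAR1 against isotype at day 28, where 0 were called, 1 was called with the dimmest 40% of genes left out (which moves the median of all genes to 0.12), 4 with array weights, and 5 on the arrays compared alone or without the syngeneic day 14 group (added); single arrays left out gave 0 to 1. At day 14 it was 2 with array weights or without that group. For anti-IFNAR1 against syngeneic skin at day 28, 0 calls (0.033% of all genes called higher) became 1 on the arrays compared alone (0.181%). They became 4 without the syngeneic day 14 group (0.22%) and 9 with array weights. At day 14, 0 calls became 2 with array weights (0 to 2 with single arrays left out). Between days, syngeneic skin had 5 calls with array weights (0 to 1 with single arrays left out), and anti-IFNAR1 skin 1 with array weights or without the syngeneic day 14 group. The cause was not tested, except that fits without that group have a smaller pooled spread. The share of all genes called is not given here for the fits with array weights, a covariate or a Gapdh limit. Their counts cannot be told apart from a shift in the calls of all genes.

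Some signs turned. Nlrc5 under anti-IFNAR1 at day 14 was 0.10 with quantile normalization and 0.040 with the Gapdh covariate, and ranged from -0.15 to 0.082 with single arrays left out, above 0 without isotype array 2 or 3 or anti-IFNAR1 array 2. Psme1 in anti-IFNAR1 against syngeneic skin at day 14 was -0.23 without arrays of high Gapdh ratio, and ranged from -0.26 to 0.45 with single arrays left out, below 0 without syngeneic array 3 or 4. Without syngeneic arrays 3 and 4, isotype against syngeneic skin at day 14 gave -0.031 for Psme1 and -0.034 for Nlrc5, against 0.80 and 0.60 with all arrays.

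Equal replicate numbers did not pair the samples: correlations of deviations ran from -0.59 to 0.59, and 0 of 15 pairs of groups had all above 0.1. With the replicate number as a block 5 genes were called at day 14 (Tap1 and B2m were lost, adjusted p = 0.0648 and 0.0638) and 8 at day 28.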
